A study of Mus musculus with 12 samples.

Results

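The facilitative glucose transporters, the GLUT proteins encoded by Slc2a genes, let sugars cross the plasma membrane down their concentration gradient. The 9 members described here were taken by symbol from 22276 gene symbols: Slc2a1 (GLUT1), Slc2a2 (GLUT2), Slc2a3 (GLUT3), Slc2a4 (GLUT4), Slc2a5 (GLUT5), Slc2a8 (GLUT8), Slc2a9 (GLUT9), Slc2a10 (GLUT10) and Slc2a12 (GLUT12). All 9 had a value in each of the 12 libraries, and all 9 had at least 1 FPKM in at least 1 library. RNA was sequenced from brown fat (BAT), white fat (WAT), liver and quadriceps muscle of male C57BL/6J mice, an inbred strain. In each organ 1 library came from mice on a normal chow diet given vehicle (NCD-veh), 1 from mice on a high-fat diet given vehicle (HFD-veh) and 1 from high-fat-fed mice given narciclasine, a plant alkaloid (HFD-ncls). HFD feeding began at 8 wk of age, weekly gavage with ncls at 1 mg/kg or with vehicle (hydroxypropyl cyclodextrin) began at 10 wk and lasted 7 wk, and the mice were 17 wk old. The number of mice behind a library was not given in the sources used here, and no ncls library from chow-fed mice was compared.

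The GLUT proteins fall into 3 classes. Class I holds GLUT1 to GLUT4, of which GLUT1 serves basal glucose uptake in most cells, GLUT2 is the high-capacity carrier of hepatocytes, GLUT3 has a high affinity for glucose, and GLUT4 is the carrier that insulin moves from internal vesicles to the surface of muscle fibres and adipocytes. Class II includes GLUT5, a fructose carrier, and GLUT9, a urate carrier. Class III includes GLUT8, which stays mostly in intracellular membranes, GLUT10 and GLUT12. The mRNA level, which is all that was measured here, does not report where the protein sits.

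Sequence before the annotated start was taken from RefSeq (GRCm38.p6) for 7 of the 9 members. Slc2a3 and Slc2a4 are named only. The 4 windows printed belong to the members with a window that passed 1.4-fold between diets within an organ, namely Slc2a2 and Slc2a5 in liver, Slc2a10 in WAT, and Slc2a8 in BAT and liver. Each is the 250 bases before the start, 5′ to 3′, and capitals mark the letters CCAAT (or ATTGG on the other strand) and GGGCGG (or CCGCCC).
Slc2a2: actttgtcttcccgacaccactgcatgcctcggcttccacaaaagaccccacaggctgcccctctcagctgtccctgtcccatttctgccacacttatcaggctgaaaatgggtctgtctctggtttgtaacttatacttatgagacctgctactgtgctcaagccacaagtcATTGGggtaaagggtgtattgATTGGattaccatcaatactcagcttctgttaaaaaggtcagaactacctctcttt
Slc2a5: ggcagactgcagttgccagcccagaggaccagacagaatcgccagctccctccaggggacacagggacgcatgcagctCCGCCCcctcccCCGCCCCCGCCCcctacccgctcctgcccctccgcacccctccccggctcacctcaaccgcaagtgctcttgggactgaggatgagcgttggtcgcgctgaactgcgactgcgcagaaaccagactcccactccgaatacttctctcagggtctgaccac
Slc2a8: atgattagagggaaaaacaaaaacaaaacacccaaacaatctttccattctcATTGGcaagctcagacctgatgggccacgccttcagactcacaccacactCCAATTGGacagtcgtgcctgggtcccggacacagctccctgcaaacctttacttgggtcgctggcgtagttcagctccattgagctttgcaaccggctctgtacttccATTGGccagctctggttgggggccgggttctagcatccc
Slc2a10: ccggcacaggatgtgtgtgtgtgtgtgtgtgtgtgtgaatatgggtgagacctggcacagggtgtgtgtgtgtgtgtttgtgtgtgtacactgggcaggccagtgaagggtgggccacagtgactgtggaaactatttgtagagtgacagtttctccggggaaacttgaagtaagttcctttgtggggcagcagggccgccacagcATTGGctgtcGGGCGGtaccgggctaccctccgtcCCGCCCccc

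The Slc2a2 window (chr3:28697653-28697902, plus strand) held 2 CCAAT matches, the Slc2a8 window (chr2:32982084-32982333, minus strand) held 4, of which 2 overlap on opposite strands, and the Slc2a10 window (chr2:165503647-165503896, plus strand) held 1. GGGCGG was matched 3 times in the Slc2a5 window (chr4:150119094-150119343, plus strand) and 2 times in that of Slc2a10. Of 32841 mouse windows of the same length, 33.9% held CCAAT on either strand, 2.79% held it at least 3 times and 0.84% at least 4 times. GGGCGG was held by 32.7%, and by 8.47% at least 3 times. The TATA box letters TATAAA were searched on both strands as well and are in 12.4% of all windows. An E-box, CACGTG, is in 6.02% of them. The letters of a half-site of the hepatocyte factor HNF1, searched as GTTAAT, are in 6.43%. None of these 3 was matched in the windows of the 7 members. A match of letters is a description of the window and not a binding site.

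The values are FPKM, the fragments of a gene divided by its transcript length and by the depth of the library, so they may be compared between genes as levels per length. Between 9130 and 12052 genes per library had at least 1 FPKM, and the depth, estimated from the lowest values and annotated transcript lengths, was about 1.86e+07 to 2.63e+07 fragments. The marker lists of the organs each summed highest in their own organ. The hepatocyte list reached at least 55303 FPKM in every liver library and the muscle fibre list at least 116932 FPKM in every muscle library. The adipocyte list summed to 18098 to 28058.5 FPKM in WAT and to 9990 to 11056 FPKM in BAT. The brown adipocyte list summed to 8374 to 10248 FPKM in BAT, but also to 1728 to 1866 FPKM in muscle. Its gene Ucp1 was more specific, at 740 to 770 FPKM in BAT and under 4 FPKM elsewhere. Some libraries held signal of another organ. The sum of the hepatocyte list was 17.3, 594 and 8.03 FPKM in muscle (in the order NCD-veh, HFD-veh, HFD-ncls, as in every set of 3 values here), and the sum of the skeletal muscle fibre list was 2604, 1056 and 188 FPKM in BAT and 2.18, 81.8 and 3.15 FPKM in liver. These values are given again beside the members that they touch. In whole-organ RNA, fewer cells of a type cannot be told apart from less RNA per cell.

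Each organ had 1 leading transporter, which was the same in its 3 libraries. Slc2a4 led in muscle with 91.9% to 94.2% of the summed FPKM of the 9 genes, in BAT with 81.2% to 86.1%, and in WAT with 60.5% to 71.2%. Slc2a2 led in liver with 70.3% to 83.4%. Second place went to Slc2a8 in WAT, BAT and muscle and in NCD-veh liver, and to Slc2a9 in HFD-veh and HFD-ncls liver. The 9 genes summed to 191, 156 and 154 FPKM in muscle, to 102, 61.6 and 56.4 FPKM in BAT, to 84.9, 75.6 and 77.2 FPKM in WAT, and to 86.8, 160 and 126 FPKM in liver. The chow-fed library was the highest in muscle, BAT and WAT and the lowest in liver. WAT had the most even mixture, with Slc2a8 at 13.3% to 16.9% and Slc2a1 at 4.88% to 8.93%. Over all 12 Slc2a genes in the table, Slc2a4 held 62.6% in WAT and 92.7% in muscle as the mean of 3 libraries, against 65.4% ± 5.43 and 92.7% ± 1.30 (SD, n = 3 libraries) over the 9.

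**Figure D1:**
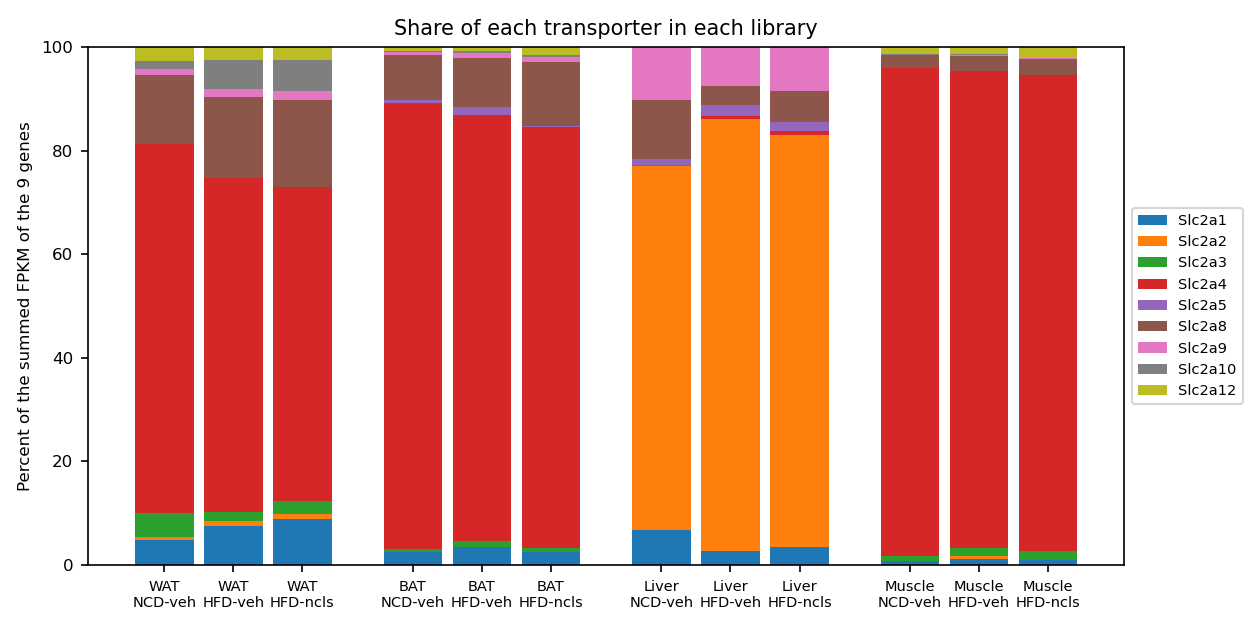
Share of each of the 9 transporters (stacked bars, percent of their summed FPKM) in each of the 12 libraries, grouped by organ. Slc2a4 fills 60.5% to 94.2% of the bar in WAT, BAT and muscle, and Slc2a2 fills 70.3% to 83.4% in liver.

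Differences between organs were tested with limma on log2(FPKM + 0.1), in an additive fit of organ and group over 13648 genes, with Benjamini-Hochberg adjustment and 6 residual degrees of freedom. In this fit the 3 libraries of an organ serve as its replicates after the mean effect of diet and ncls is removed. The spread of a gene is pooled over all organs and drawn by limma towards that of other genes. The p-values thus measure only the spread between these libraries, and not that of the 2 compared organs alone. Of the 54 comparisons of a member between 2 organs, 43 passed an adjusted p of 0.05. Organ differences were the rule among all genes: 77.9% of genes differed between WAT and BAT, 81.6% between WAT and liver, 82.2% between WAT and muscle, 66.3% between BAT and liver, 68% between BAT and muscle and 74.7% between liver and muscle. Members passed in 8, 8, 5, 8, 5 and 9 of 9 cases in the same order. WAT values lay above those of the other organs by a median of 0.76 to 0.88 on the log2 scale over genes at 1 FPKM or more in all libraries, and rescaling by this median ratio moved some of the WAT calls below.

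**Figure D2:**
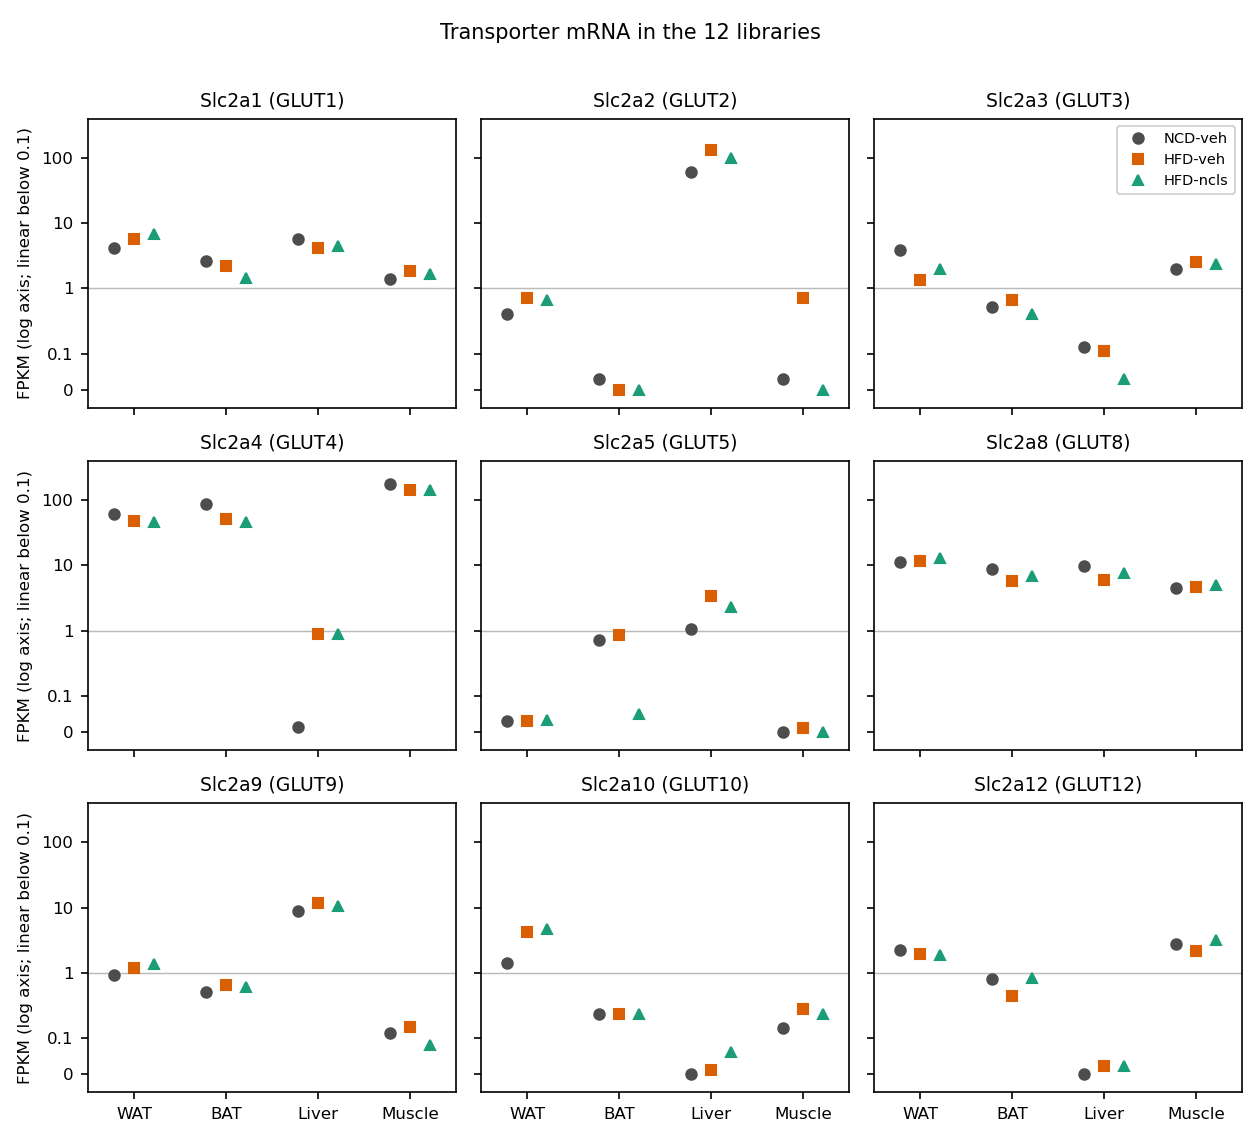
FPKM of each transporter (log axis, linear below 0.1) in WAT, BAT, liver and muscle, with 1 point per library: circles for NCD-veh, squares for HFD-veh and triangles for HFD-ncls. The grey line marks 1 FPKM, and Slc2a4 and Slc2a2 reach 180 and 133 FPKM in muscle and liver.

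Slc2a4 (chr11:69756045-69761690 in mm9, minus strand, protein coding), the insulin-regulated carrier, was at 180, 143 and 142 FPKM in muscle. It was at 87.7, 50.7 and 45.8 FPKM in BAT and at 60.5, 48.6 and 46.7 FPKM in WAT. All 3 muscle libraries lay above all fat libraries, and BAT and WAT overlapped. In liver it was at 0.0149, 0.888 and 0.886 FPKM. The organ means were 155 ± 21.4 FPKM in muscle, 61.4 ± 22.9 in BAT, 52.0 ± 7.46 in WAT and 0.596 ± 0.504 in liver (SD, n = 3 libraries of different groups). The mean was 2.52 times higher in muscle than in BAT and 87.1 times higher in WAT than in liver. The log2 difference of liver from muscle was -8.32 ± 0.73 (SE) (limma adjusted p = 8.48e-06). The differences of WAT from muscle, -1.58 ± 0.73 (SE), and of BAT from muscle, -1.39 ± 0.73 (SE), did not pass (limma adjusted p = 0.0730 and 0.124). Its log2 values spread most in liver, and without the liver libraries, an alternative added after the data were seen, the same differences passed (limma adjusted p = 7.88e-05 and 0.000266), as they did with a pseudocount of 1 (limma adjusted p = 0.000647 and 0.00223).

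Slc2a2 (chr3:28596825-28627278 in mm9, plus strand, protein coding), the hepatocyte carrier, was at 61.0, 133 and 100 FPKM in liver. In WAT it was at 0.407, 0.723 and 0.669 FPKM, or 0.667%, 0.543% and 0.669% of the liver level, where other liver-enriched genes had medians of 0.112%, 0.226% and 0.487%. In BAT it was at 0.0296 FPKM in NCD-veh and listed at 0 in both HFD libraries. The liver mean, 98.0 ± 36.1 FPKM (SD, n = 3 libraries), was 163 times that of WAT, and every liver library lay above every other library. Liver exceeded muscle by 8.73 ± 0.57 (SE) on the log2 scale (limma adjusted p = 1.20e-06). In muscle it was at 0.0311 FPKM on chow and 0.711 FPKM in HFD-veh, and the HFD-ncls library listed it at 0. The HFD-veh value stands apart from the other 2 muscle libraries and came to 0.534% of the HFD-veh liver level. Over 581 other liver-enriched genes, HFD-veh muscle held a median of 0.701% of the liver level, with quartiles of 0.534% and 1.05%, against 0.0149% in NCD-veh and 0.0128% in HFD-ncls muscle. The part of this signal in the muscle value of Slc2a2 was not tested.

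Slc2a1 (chr4:118781316-118809935 in mm9, plus strand, protein coding), the basal carrier, was found in all organs. It was at 4.14, 5.67 and 6.90 FPKM in WAT and at 5.82, 4.22 and 4.46 FPKM in liver. It was at 2.60, 2.20 and 1.47 FPKM in BAT and at 1.398, 1.86 and 1.64 FPKM in muscle. WAT and liver overlapped, as did BAT and muscle, and both of the first lay above both of the second. WAT exceeded BAT by 1.38 ± 0.26 (SE) on the log2 scale (limma adjusted p = 0.00120), a difference that came to 0.64 and did not pass after rescaling by the median ratio (limma adjusted p = 0.0540). Slc2a8 (chr2:32828510-32837603 in mm9, minus strand, protein coding), the intracellular carrier, was also found in all organs, with all 12 values between 4.56 and 13.0 FPKM. It was at 11.3, 11.9 and 13.0 FPKM in WAT, at 8.78, 5.86 and 6.99 FPKM in BAT, at 9.81, 5.95 and 7.51 FPKM in liver and at 4.56, 4.70 and 4.94 FPKM in muscle. Muscle was the lowest organ and its 3 libraries overlapped no other organ. The excess of WAT over BAT, 0.75 ± 0.17 (SE) on the log2 scale (limma adjusted p = 0.00352), came to -0.0021 after rescaling, and that over liver turned from 0.66 to -0.12. Without the HFD-ncls libraries neither excess passed (limma adjusted p = 0.0646 and 0.0897).

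Slc2a3 (chr6:122677827-122751658 in mm9, minus strand, protein coding), the high-affinity carrier, was at 3.95, 1.37 and 1.99 FPKM in WAT. It was at 2.01, 2.54 and 2.41 FPKM in muscle, at 0.523, 0.663 and 0.410 FPKM in BAT and at 0.125, 0.109 and 0.0312 FPKM in liver. WAT and muscle overlapped, and both lay above BAT, which lay above liver. The log2 difference of BAT from muscle was -1.95 ± 0.33 (SE) (limma adjusted p = 0.000772). Slc2a12 (chr10:22364817-22424091 in mm9, plus strand, protein coding), a further carrier of muscle and fat, had a like order. It was at 2.74, 2.14 and 3.18 FPKM in muscle, at 2.26, 1.95 and 1.86 FPKM in WAT and at 0.818, 0.442 and 0.824 FPKM in BAT. In liver it was listed at 0 in NCD-veh and was at 0.0229 and 0.0220 FPKM in the HFD libraries. The difference of WAT from muscle did not pass for either gene (limma adjusted p = 0.889 for Slc2a3 and 0.118 for Slc2a12), but after rescaling both were lower in WAT (limma adjusted p = 0.0378 and 0.000639).

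Slc2a9 (chr5:38740512-38894382 in mm9, minus strand, protein coding), the urate carrier, was a liver gene with 8.95, 11.9 and 10.6 FPKM in liver. It was at 0.925, 1.17 and 1.35 FPKM in WAT, at 0.504, 0.648 and 0.598 FPKM in BAT and at 0.1196, 0.148 and 0.0810 FPKM in muscle. The 4 organs did not overlap, and liver exceeded muscle by 5.61 ± 0.15 (SE) on the log2 scale (limma adjusted p = 1.94e-08). Its excess of WAT over BAT, 0.86 ± 0.15 (SE), came to 0.18 after rescaling and no longer passed (limma adjusted p = 0.334). Slc2a5 (chr4:149493392-149518278 in mm9, plus strand, protein coding), the fructose carrier, was highest in liver at 1.05, 3.43 and 2.33 FPKM. In BAT it was at 0.715, 0.861 and 0.0507 FPKM. In WAT it was at 0.0303, 0.0311 and 0.0342 FPKM, and in muscle it was at 0.0121 FPKM in HFD-veh but at 0 in the other libraries. Only the liver libraries reached 1 FPKM, and liver exceeded muscle by 4.37 ± 0.59 (SE) on the log2 scale (limma adjusted p = 0.000145). Its excess over BAT, -2.13 as BAT minus liver, passed (limma adjusted p = 0.0114) but not without the HFD-veh or the HFD-ncls libraries (limma adjusted p = 0.0579 and 0.0571). Slc2a10 (chr2:165329287-165345417 in mm9, plus strand, protein coding), an intracellular class III member, was a WAT gene at 1.41, 4.15 and 4.66 FPKM. Its values were 0.233 to 0.237 FPKM in BAT, 0.140 to 0.279 FPKM in muscle and 0 to 0.0622 FPKM in liver. WAT exceeded BAT by 3.22 ± 0.30 (SE) on the log2 scale (limma adjusted p = 1.55e-05), and BAT and muscle overlapped.

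The profile over the 12 libraries was set beside that of 7485 genes that reached 10 FPKM, as the overlap of their shares (100% for identical profiles). The genes most like Slc2a4 were Gys1, the muscle glycogen synthase, at 94.5%, Hk2, a hexokinase of muscle and fat, at 92.6%, and Lynx1 at 92.3%. Slc2a2 was nearest to the liver genes Ces2e (99.3%), Ugt1a5 and Cyp2a5, and Slc2a9 to Aqp11 (96.7%), C1rl and Chn2. Slc2a10 was nearest to Ctsk, which encodes cathepsin K (96.1%), Capg and Adap1, and Slc2a12 to Mustn1 (92.5%), Tead1 and Mvb12b. The broad members had broad neighbours, Cnot3 (96.7%), Tnrc6a and Crtc2 for Slc2a8 and Dpp7 (94.5%), Smap2 and Wasl for Slc2a1. Slc2a3 was nearest to Tgfb3 (90.1%), Mgst3 and Csgalnact2, and Slc2a5, with the least close neighbours, to Glt1d1 (82.9%), Ak4 and Tsku. The points of each profile share their organs and libraries, so the likeness is a description.

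Whether HFD changed a member in all organs was tested in the same fit. No member passed for HFD-veh against NCD-veh, and 0% of all 13648 genes did, while 990 genes and 0 members had an unadjusted p under 0.05 in limma. Slc2a9 came closest: it was higher in HFD-veh in 4 of 4 organs, by 0.30 ± 0.13 (SE) on the log2 scale (limma unadjusted p = 0.0508, adjusted p = 0.670). The muscle values are low, 0.1196 and 0.148 FPKM, and at the median share of liver-enriched genes in HFD-veh muscle the liver level of Slc2a9 corresponds to 0.0831 FPKM, more than the gap between them. The part of the hepatocyte signal in it was not tested. Slc2a10 differed by 0.58 ± 0.26 (SE) (limma adjusted p = 0.670). Its within-organ differences were 1.495 in WAT, 0.66 in muscle (0.140 to 0.279 FPKM), 0.18 in liver and -0.0052 in BAT. For HFD-ncls against HFD-veh, again no member and 0% of genes passed, and 381 genes and 0 members had an unadjusted p under 0.05 in limma. Slc2a12 was 0.31 ± 0.18 (SE) higher and Slc2a2 differed by -0.88 ± 0.49 (SE) (limma adjusted p = 1 for both). Within organs the Slc2a2 difference was -3.02 in muscle, where HFD-veh holds the hepatocyte signal, and -0.41 in liver, -0.10 in WAT and 0 in BAT. The spread in this fit also holds any response that differs between organs, so such a response cannot be told apart from noise here. Slc2a4 differed on HFD by 0.42 ± 0.63 (SE) over the organs (limma adjusted p = 0.889). Its within-organ differences were -0.32 in muscle, -0.79 in BAT and -0.31 in WAT. In liver Slc2a4 differed by 3.10, between values under 1 FPKM, and the size of that difference depends on the pseudocount.

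Within an organ 1 library stood for each group, so the differences below are descriptions without a test. A difference was counted when it passed 1.4-fold on log2(FPKM + 0.1) and at least 1 of the 2 libraries had 1 FPKM. On HFD, 7 of 20 such member values passed, where 13.3% to 29.3% of all genes did by organ. With ncls 4 of 20 passed, where 7.68% to 14.9% of all genes did, and none of these 4 passed with a pseudocount of 1 in place of 0.1. The comparisons share the HFD-veh libraries. The median log2 difference of the members counted on HFD was 0.07 in WAT, -0.57 in BAT, 0.40 in liver and 0.04 in muscle, against 0.03, -0.04, 0.04 and 0.03 over all genes. With ncls it was 0.16 in WAT, -0.15 in BAT, -0.16 in liver and -0.02 in muscle, against 0.04, -0.02, 0.02 and 0.04.

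**Figure D3:**
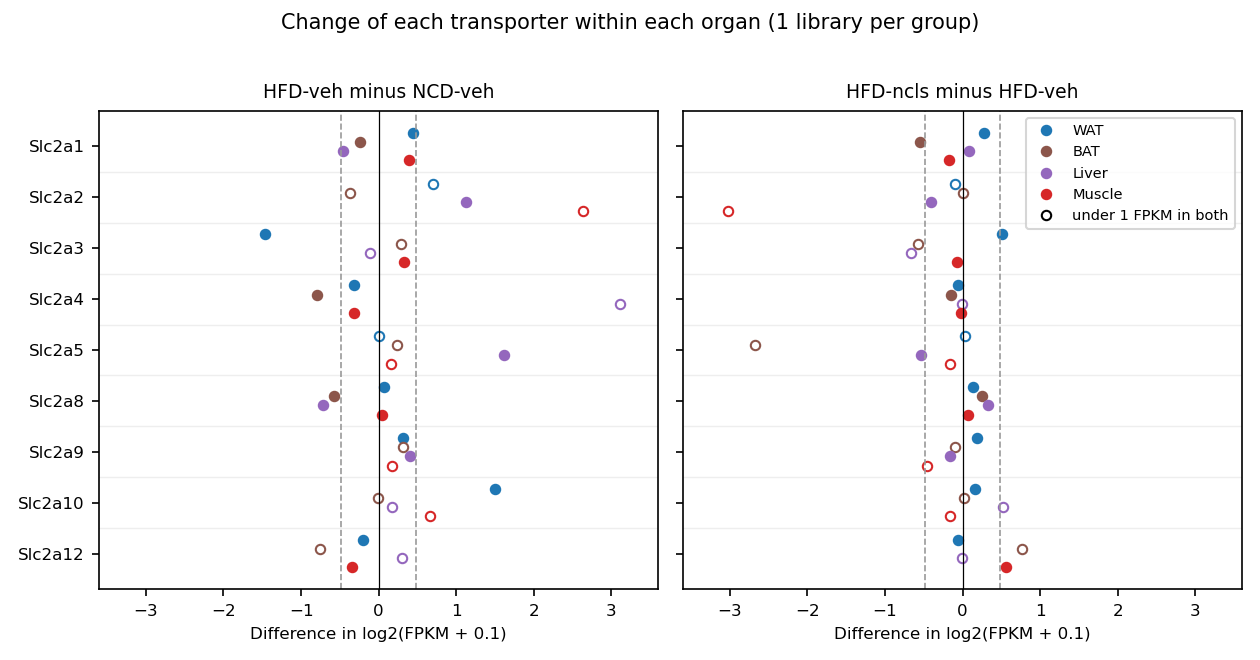
Difference in log2(FPKM + 0.1) of each transporter within each organ, for HFD-veh minus NCD-veh (diet) and for HFD-ncls minus HFD-veh (ncls), with 1 library per group. Filled points had at least 1 FPKM in 1 of the libraries, open points had less, and dashed lines mark 1.4-fold. Slc2a10 in WAT and Slc2a2 and Slc2a5 in liver lie beyond the upper line on HFD, and Slc2a3 in WAT, Slc2a4 in BAT and Slc2a8 in BAT and liver lie beyond the lower one.

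In WAT, 2 of 7 members passed 1.4-fold on HFD, against 29.3% of all genes. Slc2a10 went from 1.41 to 4.15 FPKM, a log2 difference of 1.495, and Slc2a3 from 3.95 to 1.37 FPKM, a log2 difference of -1.47. Slc2a4 differed by -0.31 and Slc2a1 by 0.44, both short of the fold. Other cell types moved in the same libraries: of the macrophage list 5 of 8 genes were higher, with sums of 647, 959 and 1213 FPKM in WAT. Mesothelium genes, 4 of 4, were lower (179, 69.2 and 74.8 FPKM), as were all 3 lymphocyte genes at 1 FPKM (9.21, 2.46 and 7.05 FPKM over the list), and 3 of 6 endothelial genes were higher (145, 222 and 228 FPKM). The adipocyte list summed to 28058.5, 19670.8 and 18098.2 FPKM, and hepatocyte genes were higher in 9 of 10 cases on HFD and 11 of 12 with ncls, while their sum was 1060, 497 and 629 FPKM. The part of these cells in the values of Slc2a10 and Slc2a3 was not tested. With ncls, 1 of 7 members passed, against 7.68% of genes: Slc2a3 was at 1.99 FPKM, a log2 difference of 0.51. Slc2a10 was at 4.66 FPKM, a log2 difference of 0.16.

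In BAT, 2 of 3 members passed on HFD, against 17.6% of genes, and both were lower. Slc2a4 went from 87.7 to 50.7 FPKM, a log2 difference of -0.79, and Slc2a8 from 8.78 to 5.86 FPKM, a log2 difference of -0.57. The muscle fibre list was lower in the same comparison in 14 of 14 genes. Taken as a percent of the muscle level, 300 other muscle-enriched genes had a median of 2.65%, 1.25% and 0.380% in BAT. At these percents the Slc2a4 level of muscle corresponds to 4.75, 1.79 and 0.539 FPKM. The part of muscle signal in the lower Slc2a4 value was not tested. The brown adipocyte list summed to 8374, 9247 and 10248 FPKM, with Ucp1 at 770, 768 and 740 FPKM. Of its 8 genes, 0 were higher and 1 was lower on HFD, and with ncls the counts were the same. The adipocyte list summed to 11056, 9990 and 10355 FPKM in BAT. Of its 8 genes, 2 were higher and 3 lower on HFD, and 1 was higher and 1 lower with ncls. The part of these cells in the Slc2a4 value was not tested. With ncls, 1 of 3 members passed, against 8.53% of genes: Slc2a1 went from 2.20 to 1.47 FPKM, a log2 difference of -0.55. Of 7 macrophage genes in BAT, 4 were higher and 1 lower on HFD, and 1 was higher and 5 lower with ncls. The list summed to 45.1, 61.8 and 39.6 FPKM, and the part of these cells in the Slc2a1 value was not tested. Slc2a5, at 0.861 FPKM in HFD-veh and 0.0507 FPKM in HFD-ncls, was under 1 FPKM in all 3 BAT libraries, where its values correspond to about 59, 68 and 4 fragments.

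In liver, 3 of 5 members passed on HFD, against 23.8% of genes. Slc2a2 went from 61.0 to 133 FPKM, a log2 difference of 1.12, and Slc2a5 from 1.05 to 3.43 FPKM, a log2 difference of 1.61. The first is known as a glucose carrier and the second as a fructose carrier. Slc2a8 went the other way, from 9.81 to 5.95 FPKM, a log2 difference of -0.71. Slc2a9 and Slc2a1 differed by 0.40 and -0.46, short of the fold. Of 14 hepatocyte genes in liver, 2 were higher and 5 lower on HFD, and 0 were higher and 1 lower with ncls. The HFD-veh library held muscle signal: 11 of 11 muscle fibre genes were higher on HFD and all 11 were lower with ncls. The part of these cells in the liver values was not tested. With ncls, 1 of 5 members passed, against 14.9% of genes: Slc2a5 went to 2.33 FPKM, a log2 difference of -0.54. Slc2a2 and Slc2a8 also lay between the other 2 libraries in HFD-ncls, at 100 and 7.51 FPKM.

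Slc2a4 was near 0 in NCD-veh liver, at 0.0149 FPKM or about 0.89 fragments, and was at 0.888 and 0.886 FPKM in the 2 HFD livers, or about 51 and 53 fragments. All are under 1 FPKM, so the gene entered none of the counts. The 2 HFD libraries were alike in Slc2a4 but not in muscle fibre genes, which summed to 81.8 FPKM in HFD-veh and 3.15 FPKM in HFD-ncls liver. Muscle-enriched genes were at a median of 0.0372%, 0.135% and 0.0506% of the muscle level in the 3 livers, and Slc2a4 at 0.00830%, 0.619% and 0.626%. Against its WAT level Slc2a4 was at 0.0247%, 1.83% and 1.90%, where WAT-enriched genes had medians of 1.38%, 1.17% and 1.45%. The HFD values lay within their quartiles, 0.299% to 3.49% in HFD-veh and 0.404% to 3.83% in HFD-ncls liver. Against its BAT level it was at 0.0170%, 1.75% and 1.93%, where BAT-enriched genes had medians of 0.276%, 1.03% and 0.518%. The HFD values again lay within the quartiles, but these were wide, 0.0802% to 5.85% in HFD-veh and 0.00642% to 2.89% in HFD-ncls liver. Many of these 69 genes were also high elsewhere, with upper quartiles of 111%, 133% and 74.6% of the BAT level in WAT. A place within the quartiles therefore cannot tell whether BAT RNA was present. Of the adipocyte list, Adipoq, Lep and Retn were listed at 0 in all 3 livers and Plin1 at 0 in NCD-veh and HFD-ncls and 0.0246 FPKM in HFD-veh. The 4 other adipocyte genes were higher in HFD-veh, with Cfd at 0.163, 10.2 and 5.71 FPKM, Cidec at 1.75, 5.88 and 2.43, Pparg at 2.81, 7.47 and 6.22 and Fabp4 at 4.29, 6.90 and 8.59 FPKM. The part of fat or muscle RNA in the liver value of Slc2a4 was not tested.

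**Figure D4:**
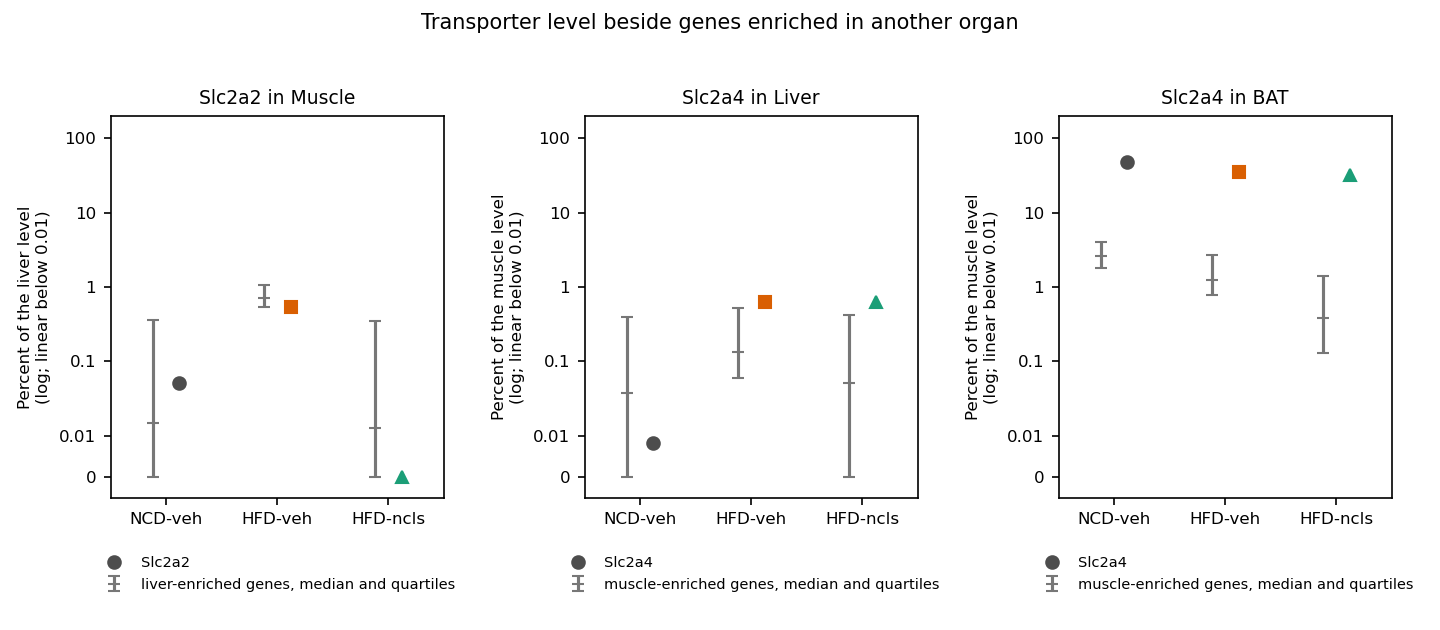
Slc2a2 in muscle (percent of its liver level of the same group) and Slc2a4 in liver and BAT (percent of its muscle level), beside the median and quartiles of 581 liver-enriched or 300 muscle-enriched genes, on a log axis that is linear below 0.01. Slc2a2 in HFD-veh muscle lies at the lower quartile of the liver genes, Slc2a4 in the 2 HFD livers lies above the upper quartile of the muscle genes, and Slc2a4 in BAT lies at 32.3% to 48.8%, above all quartiles.

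In muscle, 0 of 5 members passed on HFD, against 13.3% of genes. Slc2a4 went from 180 to 143 FPKM, a log2 difference of -0.32, and Slc2a1 differed by 0.39. With ncls, 1 of 5 passed, against 13.9% of genes: Slc2a12 went from 2.14 to 3.18 FPKM, a log2 difference of 0.55, after 2.74 FPKM in NCD-veh. The HFD-veh library of both comparisons held hepatocyte genes at 594 FPKM. Of 8 adipocyte genes in muscle, 6 were higher and 1 lower on HFD, and 0 were higher and 5 lower with ncls. Their sums were 338, 385 and 374 FPKM. The part of these cells in the muscle values was not tested. Slc2a4 differed by -0.02 between HFD-ncls and HFD-veh. Its level was lower in HFD-veh than in NCD-veh in muscle, BAT and WAT, and the HFD-ncls level lay below the HFD-veh level by a log2 difference of 0.15 or less in each.

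The gene lists that follow were counted by the same rule, and their counts stand beside the share of all genes that passed: on HFD 29.3% in WAT, 17.6% in BAT, 23.8% in liver and 13.3% in muscle, and with ncls 7.68%, 8.53%, 14.9% and 13.9%. Lists of so few genes were not tested against these shares. Of 10 other sugar transporters, Slc2a13, a proton-coupled inositol carrier, Slc2a6 (GLUT6) and Slc50a1, a sugar carrier of another family, reached 1 FPKM, and the rest (Slc2a7, Slc5a1, Slc5a2, Slc5a4a, Slc5a4b, Slc5a9 and Slc5a10) did not in any library. Slc2a13 was at 4.35, 1.34 and 1.71 FPKM in WAT and at most 0.108 FPKM in the other organs. Slc2a6 was at 0.703, 1.10 and 1.41 FPKM in WAT. Slc50a1 was between 6.87 and 32.3 FPKM in all libraries. On HFD 1 of the 3 was higher and 1 lower in WAT, and with ncls none passed. In BAT, liver and muscle Slc50a1 alone was at 1 FPKM and did not pass.

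The hexokinases trap glucose once it is inside the cell. Hk2 was at 51.1, 47.7 and 41.4 FPKM in muscle and at 0.0811 to 0.228 FPKM in liver. Of the list of 9 genes for glucose phosphorylation and release, 1 of 5 was higher on HFD in WAT, 1 higher and 1 lower of 4 in BAT and 2 of 5 higher in muscle, and with ncls 1 of 5 was higher in WAT and in liver, none of 4 passed in BAT and 3 of 6 were lower in muscle. In liver 3 of 5 were higher on HFD, among them G6pc, which encodes the phosphatase that frees glucose, at 161, 295 and 323 FPKM. Hk1 was at 9.33 to 12.1 FPKM in WAT and 0.341 to 0.673 FPKM in liver, and Hk3 in WAT went from 1.67 to 6.33 and 9.12 FPKM. G6pc was at 0, 2.68 and 0.0349 FPKM in muscle, where Uox, the liver urate oxidase, was also highest in HFD-veh, at 0, 6.54 and 0.0217 FPKM.

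Among 20 genes for GLUT4 storage and traffic, 0 were higher and 3 were lower than in NCD-veh in HFD-veh WAT, 2 and 0 in BAT, 2 and 1 of 15 in liver, and 1 and 2 of 19 in muscle. Tusc5, which encodes a protein of the GLUT4 vesicle of adipocytes, was at 23.1, 89.6 and 97.1 FPKM in BAT. Lnpep, the aminopeptidase that travels with GLUT4, was at 16.8, 10.1 and 7.27 FPKM in WAT. Txnip, which restrains glucose uptake, was at 497, 243 and 303 FPKM in WAT and at 30.6, 41.1 and 19.5 FPKM in liver. With ncls, 0 genes passed in WAT, 0 were higher and 2 lower in BAT, 1 and 1 of 16 in liver, and 2 and 1 of 19 in muscle, where Tbc1d4, the insulin-responsive brake on GLUT4 traffic, was at 5.97, 3.88 and 6.61 FPKM.

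Of 14 transcription factors and cofactors linked to Slc2a4, 1 was higher and 3 were lower on HFD in WAT, 0 and 4 in BAT, 2 and 2 of 13 in liver and 2 and 1 in muscle. Klf15 was at 11.4, 3.89 and 3.86 FPKM in BAT. In liver, Srebf1 was at 13.3, 69.9 and 95.04 FPKM. With ncls, 1 was higher and 0 lower of 13 in WAT, 0 and 1 in BAT, 1 and 1 of 13 in liver and 2 and 1 in muscle, with Mef2d at 12.5 and 8.39 FPKM in HFD-veh and HFD-ncls BAT.

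Of 6 genes of fructose use, 3 of 5 were higher and 0 lower on HFD in liver and 0 of 5 passed with ncls. In WAT 2 were higher and 3 lower of 6 on HFD and 2 and 1 with ncls. Akr1b3, an aldose reductase, was at 6.49, 4.27 and 1.17 FPKM in WAT. In liver it was at 0.000221, 0.000222 and 0.858 FPKM, and whether the estimates for this gene are stable was not tested. In BAT 1 was higher on HFD and 1 lower with ncls, of 4. In muscle 3 of 5 were higher on HFD and 4 lower with ncls, and the HFD-veh library of both comparisons is the one with hepatocyte genes at 594 FPKM. Of 6 genes of urate handling, 2 of 5 were higher on HFD in liver, with Abcg2, a urate exporter, at 24.6 and 36.9 FPKM in NCD-veh and HFD-veh. None of 5 passed with ncls in liver, 0 of 2 on HFD in WAT and 2 of 3 with ncls there, and 0 of 2 in BAT in either comparison. In muscle 1 of 3, Uox, was higher on HFD and lower with ncls.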

How the data were processed

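RNA-seq of WAT, BAT, liver and quadriceps muscle covered 3 groups (NCD-veh, HFD-veh, HFD-ncls), each organ and group being 1 library of the 12, and groups were read from the sample titles. The authors deposited FPKM values per RefSeq gene, computed by Cufflinks from TopHat alignments on mm9. FPKM is not a count, so no count test was used, and a 0 can be a failed estimate. Members, gene lists, marker lists and tests were chosen with earlier results of these data known.

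Log2(FPKM + 0.1) was fitted with limma 3.58.1 (R 4.3.3) over 13648 genes with at least 1 FPKM in 1 library and a value in all, with organ and group as terms. Of 22276 symbols, 86 lacked a value in some library. Within an organ, differences past 1.4-fold were counted without a test. Organ-enriched genes had a mean of at least 10 FPKM in that organ, 20 or more times their median in the 9 libraries of the other organs. Other tools were Python 3.11.15, pandas 2.3.3 and numpy 2.4.6.

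The genes named are the 9 members, other sugar transporters at 1 FPKM, Hk1, Hk2 and Txnip, at most 3 genes per list and comparison with the largest within-organ difference, and the 3 nearest profiles. Some genes that this rule names are not reported here. G6pc in liver, Tbc1d4 in NCD-veh, Akr1b3 in NCD-veh WAT and in liver, Hk1 and Ucp1 values and the adipocyte genes of liver are given as context. Gene positions are those of GENCODE M1 (mm9), and sequences before the start are RefSeq's on GRCm38.p6. Depth was estimated from the lowest values and transcript lengths and is approximate, so no interval rests on it. Alternatives covered the pseudocount, the filter, rescaling by the median ratio, a variance trend, the fold threshold and leaving out groups, organs or libraries. A comparison of protein sequences was not run.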

Additional observations from a re-analysis of the deposited data

Results flagged for a closer look

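2 results had changes past 1.4-fold in opposite directions in 2 organs, among members with at least 0.5 FPKM in 1 of the libraries. The difference between the organs was not tested, since each organ has 1 library per group. Slc2a4 differed between HFD-veh and NCD-veh by -0.79 on the log2 scale in BAT (87.7 to 50.7 FPKM) and by 3.10 in liver (0.0149 to 0.888 FPKM). The liver value, whose size depends on the pseudocount, is repeated in HFD-ncls liver at 0.886 FPKM. Slc2a3 differed between HFD-ncls and HFD-veh by 0.51 in WAT (1.37 to 1.99 FPKM) and by -0.58 in BAT (0.663 to 0.410 FPKM). Both BAT values are under 1 FPKM, and the WAT difference came to 0.34 with a pseudocount of 1, under 1.4-fold.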

How the results depend on the processing

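Of 54 member comparisons between organs, 37 to 43 passed in every alternative, against 43, and 38 without the 3 libraries with signal of another organ (HFD-veh muscle, HFD-veh BAT and HFD-ncls WAT, chosen from earlier results), where Slc2a5 lost its differences between BAT and WAT and between BAT and muscle, and Slc2a8 those between WAT and BAT, WAT and liver, and BAT and muscle. NCD-veh BAT and HFD-veh liver, kept there, held more muscle signal than other libraries of their organs, and without them and HFD-veh muscle 39 passed, an alternative added after the data were seen. No member passed for a shared effect of diet or of ncls in any alternative. Rescaling by the median ratio turned the excess of WAT for Slc2a8 over BAT to -0.0021 and over liver to -0.12. Within organs, it took Slc2a3 with ncls in WAT to 0.48, under 1.4-fold, and Slc2a1 on HFD in liver to -0.49, past it. On HFD, the 7 member values past 1.4-fold became 12 without the filter, 4 at a fold of 2 and 5 of 12 without the first 3 libraries, and 2 of 7, in WAT alone, without the second 3, both added after the data were seen. With ncls, 4 became 0 with a pseudocount of 1, 10 without the filter, 0 at a fold of 2 and 1 of 5, in liver alone, without the first 3 libraries, and 2 of 10, in WAT and BAT, without the second 3. Of the 27 nearest genes, 15 were shared when cosine was the measure. No paired analysis within an organ was possible because each organ and group has 1 library. Organ is itself a term of the fit, so groups were compared within organs. Depth limits the values under 0.1 FPKM, which rest on a few fragments.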
